A study of Mus musculus with 8 samples.

Results

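Disallowed genes are genes that are active in most tissues of the body but kept silent in mature pancreatic beta cells. Several of them encode enzymes and transporters that would let lactate, pyruvate or glucose feed energy metabolism outside the normal glucose range, so their silence is held to keep insulin release tied to glucose. Others act in growth factor signalling, and their low expression goes with the low rate of division of the mature cell. Repressive histone marks and DNA methylation at promoters are among the known ways in which they are kept silent. The 10 genes described here, of 21887 protein-coding genes on chromosomes 1 to 19, X and Y, were chosen by name: Ldha, Slc16a1, Hk1, Oat, Acot7, Pdgfra, Smad3, Cxcl12, Igfbp4 and Lmo4. Every accessible region over the body of each gene and within 25 kb on both sides was taken, 94 of the 100099 regions listed with the empty vector and 141 of the 128538 listed with Klf4.

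The data are from ATAC-seq, in which a transposase cuts and tags DNA that is free of nucleosomes, so that sequenced fragments pile up as peaks over open chromatin. The cells were MIN6, an established mouse insulinoma line that makes insulin and serves as a beta cell model, labelled WT. Both groups were transfected for 48 hours, 1 with the plasmid pcDNA 3 without insert (empty vector) and 1 with pGloMyc-Klf4, which expresses the zinc finger transcription factor Klf4. There were 4 biological replicates per plasmid, but the values used here are 1 merged peak list per plasmid. The spread over libraries is therefore unknown, and no difference given below was tested. MIN6 is a tumour-derived line and not a mature beta cell, the transfection is transient, and the share of cells that took up a plasmid is not given in the sources used here.

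Read depth is unknown from the lists, and the Klf4 list is the longer one, with 1.28 times as many peaks. Over the whole lists this excess lies among weaker peaks. When only peaks with a −log10 q of 20 or more were counted, the ratio of peak numbers was 0.973. Around the 10 genes that ratio was 1.35, from 20 and 27 peaks. The −log10 q is the peak caller's measure of how far a peak stands out, and it grows with depth. A ratio taken after the same −log10 q limit was set on both lists, those above included, therefore also depends on their unknown depths. For a weak peak that is in 1 list only, depth and a difference of chromatin cannot be told apart. The label of the cells was checked at defining markers. Of 8 beta cell markers with an annotated start, 7 had a peak there in both lists, the exception being Slc2a2. Of the starts of other cell types, 0 of 4 mesenchymal, 0 of 2 endothelial, 0 of 2 blood and 2 of 6 acinar markers had a peak with the empty vector. With Klf4 these counts were 2, 1, 0 and 3.

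The promoters that the results turn on are printed first, as the 250 bases before the start in the RefSeq GRCm38.p6 table, read 5′ to 3′ on the strand of the gene. They were picked for what the lists show there: a strong peak in both lists (Slc16a1, and Hk1 at its inner start), a peak of moderate strength (Ldha), a weak one (Oat), a peak with Klf4 only (Acot7), a peak nearby with the empty vector only (Hk1 at its outer start) and no peak (Pdgfra). Capitals mark CCACCC and CCGCCC, the cores of the CACCC-type and GC-rich sites to which Klf proteins bind, and ACGTG, the core of the hypoxia response element, on either strand. CACGTG holds ACGTG on both strands.
Slc16a1: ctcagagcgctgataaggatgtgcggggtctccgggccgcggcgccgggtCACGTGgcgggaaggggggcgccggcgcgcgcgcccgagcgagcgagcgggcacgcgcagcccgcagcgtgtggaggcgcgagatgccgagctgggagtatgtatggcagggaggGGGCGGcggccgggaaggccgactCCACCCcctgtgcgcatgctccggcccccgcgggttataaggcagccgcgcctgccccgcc
Ldha: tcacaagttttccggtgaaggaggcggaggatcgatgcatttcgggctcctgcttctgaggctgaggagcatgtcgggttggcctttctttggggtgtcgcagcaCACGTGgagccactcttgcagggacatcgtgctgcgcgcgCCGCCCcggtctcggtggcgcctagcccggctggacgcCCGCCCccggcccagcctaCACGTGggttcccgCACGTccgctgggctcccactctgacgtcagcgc
Hk1, inner start: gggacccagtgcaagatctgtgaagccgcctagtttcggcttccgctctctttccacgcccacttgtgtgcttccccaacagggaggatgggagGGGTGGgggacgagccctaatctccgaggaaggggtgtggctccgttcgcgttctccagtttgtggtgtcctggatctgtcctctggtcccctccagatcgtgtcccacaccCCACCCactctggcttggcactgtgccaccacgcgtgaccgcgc
Oat: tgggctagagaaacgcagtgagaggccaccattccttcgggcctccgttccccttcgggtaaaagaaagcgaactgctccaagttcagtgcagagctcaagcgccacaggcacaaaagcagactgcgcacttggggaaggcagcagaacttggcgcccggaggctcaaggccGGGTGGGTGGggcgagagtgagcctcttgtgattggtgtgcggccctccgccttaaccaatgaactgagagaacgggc
Acot7, inner start: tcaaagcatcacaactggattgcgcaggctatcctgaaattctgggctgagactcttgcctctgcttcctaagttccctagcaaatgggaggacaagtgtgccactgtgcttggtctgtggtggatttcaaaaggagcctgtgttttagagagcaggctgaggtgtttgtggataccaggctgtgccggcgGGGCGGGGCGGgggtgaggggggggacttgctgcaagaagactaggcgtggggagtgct
Hk1, outer start: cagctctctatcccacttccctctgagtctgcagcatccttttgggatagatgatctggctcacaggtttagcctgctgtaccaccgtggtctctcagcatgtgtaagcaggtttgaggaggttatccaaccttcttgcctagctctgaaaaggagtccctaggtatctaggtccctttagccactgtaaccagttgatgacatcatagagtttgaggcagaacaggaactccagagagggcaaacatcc
Pdgfra: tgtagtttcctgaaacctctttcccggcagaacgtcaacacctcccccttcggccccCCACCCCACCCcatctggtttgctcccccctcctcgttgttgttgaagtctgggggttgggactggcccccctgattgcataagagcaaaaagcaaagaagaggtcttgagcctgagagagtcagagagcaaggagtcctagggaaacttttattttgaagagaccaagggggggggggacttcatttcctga
These stretches lie at chr3:104638414-104638663, chr7:46845554-46845803, chr10:62340422-62340671, chr7:132576399-132576648, chr4:152185358-152185607, chr10:62379909-62380158 and chr5:75152001-75152250, in the order printed. Slc16a1, Ldha, Acot7 and Pdgfra are on the plus strand, and Hk1 and Oat on the minus strand. A match to these letters is a description and does not show binding.

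The table holds 14 starts for the 10 genes. CCACCC was found before 7 of the 14, CCGCCC before 8 and ACGTG before 4, and starts of 1 gene can share sequence. Among 21263 starts of coding genes the shares were 30.2%, 42.6% and 17.8%. Ldha had 5 matches to ACGTG, and the outer Hk1 start had none to any of the 3 motifs. The genes differed widely in CpG content, given as the ratio of CpG dinucleotides found to those expected from the C and G content, and over all starts the median was 0.53. It was 1.03 at Slc16a1, 0.886 at the Ldha start printed, 0.629 at Oat, 0.57 at the inner Hk1 start, 0.333 at Acot7, 0.216 at Pdgfra and 0.0652 at the outer Hk1 start. Of the 8 member starts with a ratio of at least 0.6, 7 had a peak within 500 bp with the empty vector and 8 with Klf4. Of the 6 below it, 4 did in each list. Over all coding starts, 93.6% and 97.0% of those at or above 0.6 and 35.6% and 45.1% of those below it had such a peak in the empty vector and the Klf4 list.

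**Figure D1:**
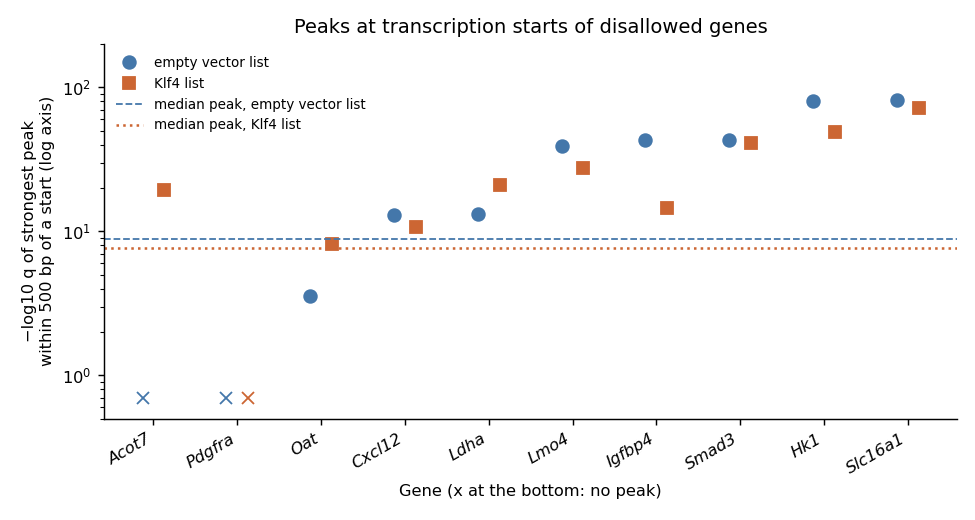
Strength (−log10 q, log axis) of the strongest peak within 500 bp of any annotated start of each gene, circles for the empty vector list and squares for the Klf4 list, with a cross where there is none and lines at the median peak of each list (8.82 and 7.61). Slc16a1 and Hk1 have the strongest start peaks in both lists, Acot7 has one with Klf4 only and Pdgfra has none.

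The first question was whether the chromatin of these genes is open at all in MIN6 cells. A start counted as open when a peak lay within 500 bp of it, and the 5′ end of the gene body counted as a start as well. With the empty vector 8 of the 10 genes had an open start, against 64.0% of 17492 coding genes, and with Klf4 9 of 10, against 70.3%. Of the 10 genes 8 were open in both lists, Acot7 with Klf4 only (6.96% of coding genes were open with Klf4 only, and 0.629% with the empty vector only), and Pdgfra in neither. Without the 5′ ends of gene bodies, 70% of the members were open with the empty vector and 90% with Klf4. Igfbp4 then joined Acot7 as open with Klf4 only. With the 20000 strongest peaks of each list the order turned: 50% of the members were open with the empty vector and 30% with Klf4, beside 49.4% and 50.5% of coding genes. This turn lay at Lmo4 and Igfbp4. Of the empty vector peaks 17.1% and 15.8% were stronger than theirs, and of the Klf4 peaks 16.4% and 29.2%. The limit of 20000 keeps a smaller part of the Klf4 list, which is longer.

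Of the genes of pyruvate, lactate and glucose handling, Slc16a1 had the strongest start. Slc16a1 encodes the monocarboxylate transporter MCT1, which carries lactate and pyruvate across the plasma membrane. With the empty vector its start lay in a peak of 1386 bp (chr3:104638136-104639521) with a −log10 q of 81.8, and 8.1% of the peaks of that list were stronger. With Klf4 it lay in a peak of 1309 bp (chr3:104638218-104639526) with a −log10 q of 71.4, and 5.83% were stronger. The peaks cover nearly the same bases. Around the gene all 10 empty vector peaks were overlapped by 1 of the 12 Klf4 peaks, and the 2 peaks found with Klf4 only lay beyond the 3′ end with −log10 q of 4.81 and 2.59. Peaks covered 7774 bp (empty vector) and 9152 bp (Klf4), a log2 ratio of 0.22. Over the alternatives tried it lay between −0.05, with the 20000 strongest peaks of each list, and 0.43. In the gene body alone the lengths were 1516 and 1514 bp.

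Ldha encodes the A subunit of lactate dehydrogenase, which turns pyruvate into lactate. Its body starts upstream of both starts in the promoter table, and no peak lay at that outer end: the nearest was 3060 bp away with the empty vector and 2467 bp away with Klf4. Both inner starts lay in 1 empty vector peak of 1795 bp (chr7:46845372-46847166, −log10 q 13.2). The Klf4 peak of 1328 bp (chr7:46845292-46846619, −log10 q 20.9) covered the first of them and ended 463 bp before the second. Covered length in the window was 3503 bp (empty vector) and 5932 bp (Klf4), a log2 ratio of 0.68, yet within the gene body it was 1795 and 1658 bp (log2 ratio −0.09). The ratio was also under 1.5-fold with peaks of 500 bp or wider (0.44), with windows of 10 kb on both sides (0.49) and with the 20000 strongest peaks of each list, none of which lay in the window. The greater length with Klf4 therefore lay in the flanks, which held 1708 and 4274 bp. Part of it was in an upstream peak that was 273 bp wide with the empty vector (chr7:46838942-46839214, −log10 q 3.21) and 1593 bp wide with Klf4 (chr7:46838215-46839807, −log10 q 12.8). Of the 3 peaks found with Klf4 only, 1 lay inside the neighbouring gene Ldhc, the sperm lactate dehydrogenase (−log10 q 9.79).

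Hk1 encodes hexokinase 1, a glucose-phosphorylating enzyme that works at low glucose. Its body spans 111 kb, and the lists differed at the outer of its starts. The inner start at chr10:62340421 lay in a peak in both lists, 839 bp with the empty vector (chr10:62339771-62340609, −log10 q 80.7) and 2269 bp with Klf4 (chr10:62338371-62340639, −log10 q 49.3). The strongest peak of the window stood 3.5 kb upstream of it in both lists, at chr10:62343889-62344562 with the empty vector (−log10 q 165) and chr10:62343919-62344568 with Klf4 (−log10 q 108). At the outer start the empty vector list had a weak peak 370 bp upstream (chr10:62380278-62381277, −log10 q 6.37) without a Klf4 counterpart, and the nearest Klf4 peak was 2782 bp downstream. The window held 13 peaks with the empty vector and 22 with Klf4, and 8621 against 13922 bp (log2 ratio 0.66). Of the 22, 12 were in the Klf4 list only. The strongest of these were chr10:62403105-62403486, inside the neighbouring hexokinase gene Hkdc1 (−log10 q 33.9), chr10:62269386-62269973, near the 3′ end of Hk1 (28.1), and chr10:62282487-62283753, inside Hk1 (22.1). Over the alternatives tried the log2 ratio lay between 0.34 and 1.24, and it was under 1.5-fold with peaks of 500 bp or wider (0.34) and with windows of 50 kb on both sides (0.43).

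Oat and Acot7 encode enzymes of amino acid and lipid metabolism, ornithine aminotransferase of the mitochondrion and a thioesterase that splits long-chain acyl-CoA in the cytosol. Taking the strongest start peak of each gene, Oat had the weakest of the genes with an open start. Its peak was 215 bp wide with the empty vector (chr7:132576294-132576508, −log10 q 3.56, with 76.3% of peaks stronger) and 721 bp wide with Klf4 (chr7:132575799-132576519, −log10 q 8.1, with 47.7% stronger). It was also the gene with the fewest Klf4 peaks, 3 against 5, and it had no peak found with Klf4 only. Its covered length was 2302 bp (empty vector) and 2516 bp (Klf4), a log2 ratio of 0.11. Over the alternatives tried it lay between 0.03 and 0.80.

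Acot7 had the largest ratio of the 10 genes. With the empty vector no peak lay at either start, the nearest standing 4613 bp upstream of the 5′ end of the body and 12121 bp upstream of the inner start. With Klf4 a peak of 1427 bp lay over the 5′ end (chr4:152177723-152179149, fold enrichment 4.86, −log10 q 19.3, with 22.6% of peaks stronger). A peak of 1501 bp lay over the inner start (chr4:152185205-152186705, fold enrichment 3.25, −log10 q 6.16). Fold enrichment is the signal in a peak over its local background as the authors' peak caller gave it. The window held 20 peaks and 8748 bp with the empty vector and 30 peaks and 21171 bp with Klf4, a log2 ratio of 1.23, above 95.3% of coding genes. The difference of 12.4 kb at Acot7 was the largest of the 10 genes, which together had 33.3 kb more with Klf4. Of the Klf4 peaks 15 were in that list only, and 5 empty vector peaks had no Klf4 counterpart. Under each of the alternatives tried the log2 ratio of Acot7 was between 0.82 and 1.73. The strongest peak of the window in both lists belongs to a neighbour, at the start of Icmt (−log10 q 158 with the empty vector and 139 with Klf4).

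**Figure D2:**
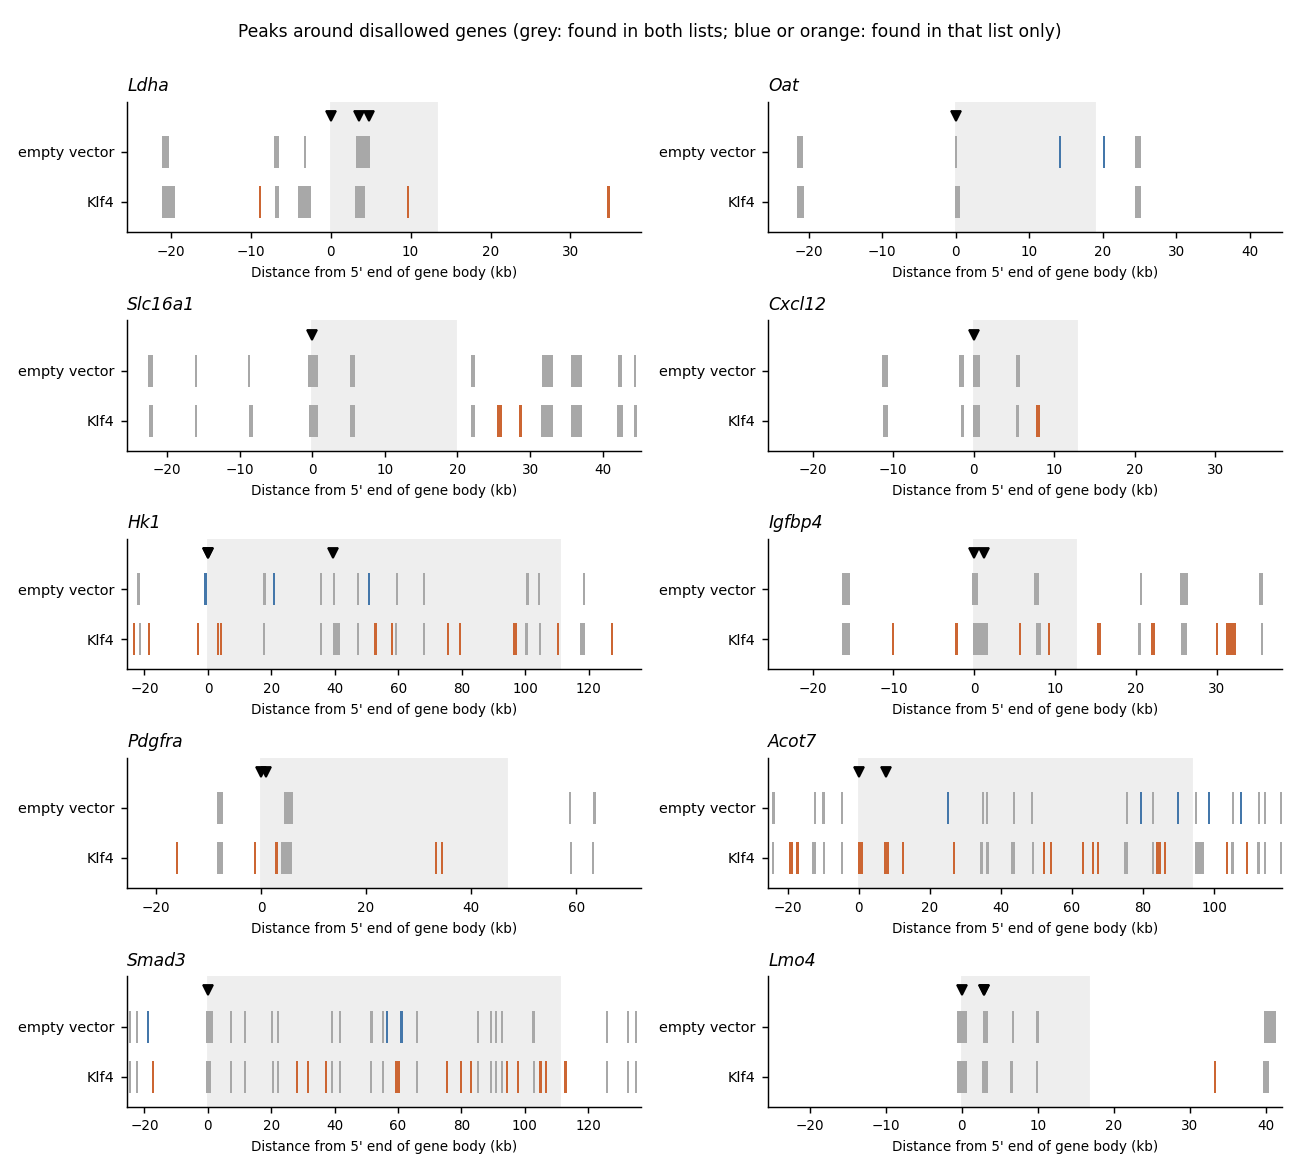
Peaks of both lists around each of the 10 genes, by distance in kb from the 5′ end of the gene body (grey shading) in the direction of transcription, with triangles at annotated starts. Grey bars are peaks found in both lists and coloured bars are peaks of 1 list only, and narrow peaks are widened to a minimum so that they can be seen. Klf4-only peaks are spread along Acot7, Hk1 and Smad3, and Acot7 has them at both starts.

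Among the genes of growth factor and cytokine signalling, Pdgfra, the alpha receptor for platelet-derived growth factor, had no open start. The peak nearest to its start in the promoter table was 3529 bp downstream with the empty vector (chr5:75155780-75157330, −log10 q 14.5). With Klf4 there was a weak peak 1829 bp downstream (chr5:75154080-75154321, −log10 q 2.91), and another 1103 bp upstream of the 5′ end of the body (chr5:75149913-75150219, −log10 q 11.3), neither of them in the empty vector list. The window had 4 peaks and 3567 bp with the empty vector and 9 peaks and 5797 bp with Klf4, a log2 ratio of 0.63. All 4 empty vector peaks had a Klf4 counterpart. The strongest Klf4 peak of the window was a peak of 310 bp inside the gene in that list only (chr5:75185653-75185962, −log10 q 19.6). With peaks of 500 bp or wider the ratio was 0.01, and no peak of the window reached a −log10 q of 20 in either list.

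Smad3, the receptor-activated effector of TGF-beta signalling, had a peak over its start in both lists. This peak was 2256 bp wide with the empty vector (chr9:63756275-63758530, −log10 q 43.3) and 1551 bp wide with Klf4 (chr9:63756917-63758467, −log10 q 41.1). Its window of 161 kb held the most peaks, 23 and 33, with 11312 and 16991 bp (log2 ratio 0.57). Of its Klf4 peaks 13 were in that list only, and the strongest of these, inside the gene, had a −log10 q of 24.0 (chr9:63682340-63682844). The next strongest had 7.68. Over the alternatives tried the log2 ratio lay between −0.36 and 0.89. It was negative with the 20000 strongest peaks of each list (−0.36) and with peaks of a −log10 q of 20 or more (−0.18). It was past 1.5-fold with peaks of 500 bp or wider (0.89), in the gene body alone (0.67) and with windows of 10 kb on both sides (0.65).

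Cxcl12, the chemokine that binds the receptor Cxcr4, had nearly the same peaks in both lists. All 4 empty vector peaks had a Klf4 counterpart, and the start peak had a −log10 q of 13.0 with the empty vector (chr6:117168509-117169371) and 10.8 with Klf4 (chr6:117168399-117169346). Covered length was 2762 and 2973 bp (log2 ratio 0.09). The Klf4 list had 1 peak more, inside the gene (chr6:117176259-117176735, −log10 q 10.8). The direction turned with the choice of peaks, to −0.21 for those with a −log10 q of 5 or more and to −0.40 for those of 500 bp or wider.

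Igfbp4 encodes a secreted protein that binds insulin-like growth factors and limits their action. With the empty vector a peak of 807 bp lay over the 5′ end of its body (chr11:99039700-99040506, fold enrichment 6.3, −log10 q 42.9) and stopped 738 bp before the inner start. With Klf4 the overlapping peak was 1924 bp wide and ran over both starts (chr11:99039835-99041758, fold enrichment 3.22, −log10 q 14.6). The wider peak thus had the lower enrichment in its own list. In the whole window there were 6 peaks and 4141 bp with the empty vector and 14 peaks and 8137 bp with Klf4 (log2 ratio 0.9), with 8 of the 14 in the Klf4 list only. Restricted to peaks with a −log10 q of 20 or more the direction turned, to −0.57, and with peaks of 500 bp or wider the ratio was just under 1.5-fold (0.58). The strongest peak of the window in both lists was at the start of the neighbour Top2a, a topoisomerase of dividing cells (−log10 q 107 with the empty vector and 73.96 with Klf4).

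Lmo4, a LIM-only cofactor that bridges transcription factors, was the only one of the 10 genes with less covered length with Klf4, 3686 bp against 4260 bp (log2 ratio −0.19). All 5 of its empty vector peaks had a Klf4 counterpart. At its outer start the peaks were 1229 bp (chr3:144204606-144205834, −log10 q 38.9) and 1332 bp (chr3:144204581-144205912, −log10 q 27.3). At its 2 inner starts a common peak had a −log10 q of 14.5 with the empty vector and 17.5 with Klf4. The largest difference of a single peak was downstream of the gene, at a peak of 1557 bp (empty vector) and 801 bp (Klf4). The direction turned with windows of 50 kb on both sides, to 0.25, and for peaks with a −log10 q of 20 or more, to 0.08. The ratio was further below that of the main setting for peaks with a −log10 q of 5 or more (−0.76). With the 20000 strongest peaks of each list it was −1.79, from 1229 bp (empty vector) and 0 bp (Klf4).

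**Figure D3:**
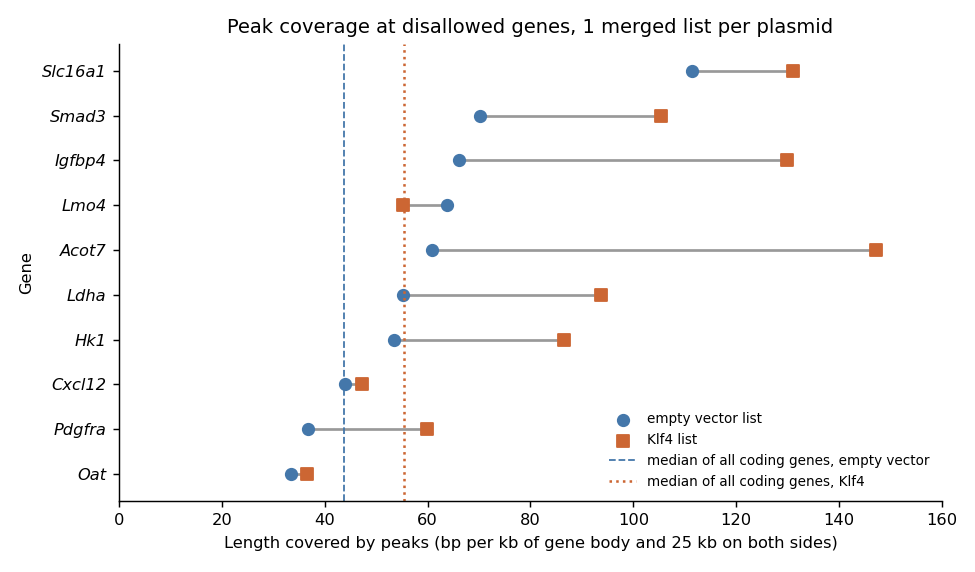
Length covered by peaks per kb of window (gene body and 25 kb on both sides) for each gene, circles for the empty vector list and squares for the Klf4 list, with lines at the medians of all coding genes (43.7 and 55.4 bp per kb). Slc16a1 is the most densely covered gene with the empty vector and Acot7 with Klf4, and Lmo4 is the only gene whose square lies to the left.

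The second question was whether the group as a whole differed with Klf4. The log2 ratios here are of covered length with Klf4 over that with the empty vector, after 500 bp was added to each, and a gene was called when the ratio passed 1.5-fold. Acot7, Igfbp4, Ldha, Hk1 and Pdgfra were called as higher with Klf4, 5 of 10, beside 23.0% of all 21887 coding genes, and 0 of 10 as lower, beside 1.54%. Pdgfra lay just inside the limit (ratio 1.55) and Smad3 just outside it (1.48). With peaks of 500 bp or wider 2 of 10 were called as higher, Acot7 and Smad3, close to the 22.5% of coding genes. The median log2 ratio over the members was 0.6, and over all coding genes 0.21, with quartiles of 0 and 0.55. Relative to that genome-wide shift the median of the members was 0.39 and 7 of the 10 lay above it, while Oat and Cxcl12 changed sign and joined Lmo4 below. On that scale 2 genes passed 1.5-fold, Acot7 and Igfbp4, beside 13.4% of coding genes. The median of the members was 0.26 for peaks with a −log10 q of 20 or more and 0 for the 20000 strongest peaks of each list, and the median of all coding genes was then 0. With a −log10 q of 20 or more, 4 of the 10 genes passed 1.5-fold higher, beside 6.71% of coding genes.

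**Figure D4:**
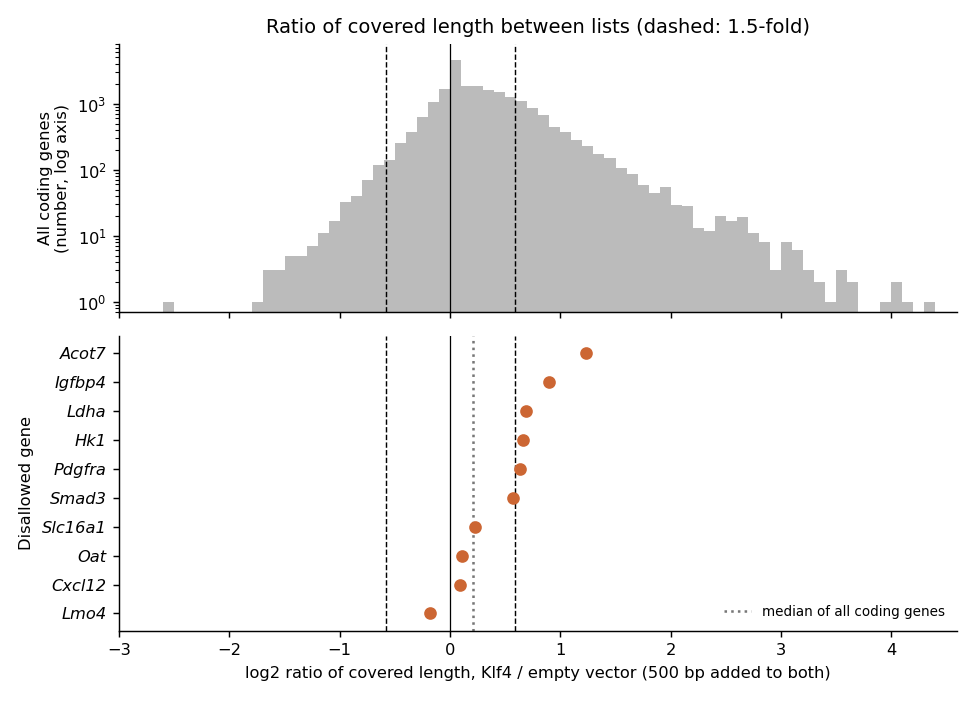
Log2 ratio of covered length (Klf4 over empty vector, 500 bp added to both) for all coding genes as a histogram with a log axis (top) and for each disallowed gene (bottom), with dashed lines at 1.5-fold and a dotted line at the median of all coding genes (0.21). Of the 10 genes, 5 lie beyond the upper dashed line and Lmo4 alone lies below 0.

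Density of coverage, which allows for window length, was 58.1 bp per kb with the empty vector (median of the members) and 90.0 bp per kb with Klf4, beside 43.7 and 55.4 bp per kb for all coding genes. With the 20000 strongest peaks of each list the order turned, to 15.1 and 12.3 bp per kb over the members. With the empty vector the members ranged from the percentile 39.8 among coding genes at Oat to 92.2 at Slc16a1. With Klf4 they ranged from 36.6 at Oat to 89.6 at Acot7. The percentile differed most at Acot7 (64.8 with the empty vector and 89.6 with Klf4), Lmo4 (67.1 and 49.8) and Igfbp4 (68.8 and 84.7).

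Single peaks were then followed between the lists, a peak counting as found in both when it shared 1 bp or more with a peak of the other list. Among the 94 empty vector peaks, 13 were in that list only (13.8%, 95% Wilson interval 8.26 to 22.2%), beside 18.8% of the whole list. Of the 141 Klf4 peaks, 60 were in that list only (42.6%, interval 34.7 to 50.8%), beside 36.7% of the whole list, which lies within the interval. These intervals cover counting error over peaks only, and peaks of 1 locus are not independent. Acot7, Hk1 and Smad3, the genes with the longest bodies, held 40 of the 60, and 85 of all 141 Klf4 peaks. The Klf4-only peaks had a median −log10 q of 4.02 and a median width of 408.5 bp, against 12.8 and 628 bp for Klf4 peaks with a counterpart. Over the whole Klf4 list the peaks without a counterpart were the weaker ones too, with a median −log10 q of 4.75 against 10.8 and a median width of 355 bp. Of the 60, 4 reached a −log10 q of 20, at Hk1 (3, of which 1 inside Hkdc1) and Smad3 (1), and 0 of the 13 empty-vector-only peaks did. The share of all 1-list-only peaks past this limit is not given here. Whether these counts differ from the whole lists is therefore unknown.

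To see how far the pattern at starts goes beyond these 10 genes, 20 further genes that have been described as disallowed in beta cells were counted in the same way. Of the 14 with an annotated start, 5 were open with the empty vector (Hsd11b1, Cat, Parp3, Ndrg2 and Igf1) and 11 with Klf4, or 35.7% and 78.6%, beside 64.0% and 70.3% of coding genes. Of the 9 without an empty vector peak at a start, 7 had a peak there with Klf4, beside 19.3% of the 6295 coding genes without one. These 7, named after their values were seen, were Arhgdib (−log10 q 20.6), Itih5 (9.66), the secreted receptor ligand Gas6 (9.56), the caveolar protein gene Cavin1 (8.09), the Fc receptor gene Fcgrt (6.53), Cd302 (5.72) and the glutathione transferase gene Mgst1 (4.09). The other two, Yap1 and Zfp36l1, had none in either list. Igf1, insulin-like growth factor 1, went the other way, with a weak peak at a start in the empty vector list only (−log10 q 2.18). In covered length 9 of the 20 were called as higher with Klf4 and 1, Igf1, as lower, beside 23.0% and 1.54% of coding genes. Their median log2 ratio was 0.41, beside 0.21. The largest ratio was at Cat, the catalase gene, where peaks covered 2074 bp (empty vector) and 6304 bp (Klf4), a log2 ratio of 1.4. Next came Arhgdib (1.33), Nfib (1.18), Cd302 (0.95) and Cavin1 (0.73). At Igf1 the lengths were 1986 and 1051 bp (log2 ratio −0.68).

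**Figure D5:**
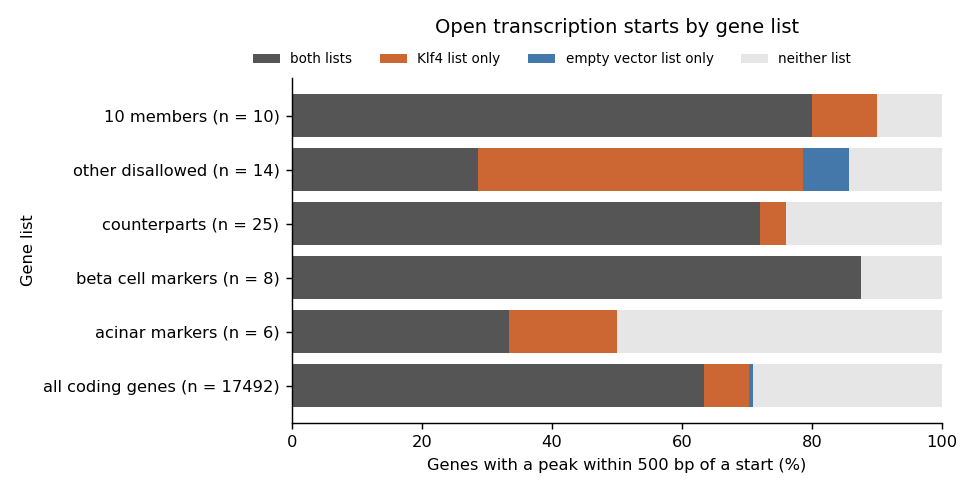
Share of genes (%) in each list with a peak within 500 bp of an annotated start in both peak lists (dark grey), the Klf4 list only (orange), the empty vector list only (blue) or neither (light grey), with the number of genes that have an annotated start. The 10 members are mostly open in both lists, whereas 7 of the 14 other disallowed genes are open with Klf4 only.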

How the data were processed

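The members and gene lists were chosen with earlier results of these data known. Of the lists, the 20 other disallowed genes, the 32 counterparts (paralogues and pathway partners of the members) and the cell type markers came from general knowledge, without a list given by the study. ATAC-seq was done on 8 MIN6 libraries, and the values come from 2 deposited peak lists, 1 per plasmid, named as merged. Bowtie2, MACS2 and the build mm10 (GRCm38) are named in the submitters' processing notes, without versions. Whether reads or peaks were merged is not given in the sources used here, nor are read filters or any shift of reads to the cut site. Broad peaks have no summit, and broad calling joins neighbouring stretches, which bears on widths and covered lengths.

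The authors deposited 3 values per peak that were used: the fold enrichment (a ratio, signal over local background) and −log10 of the p-value and the q-value. The deposited score is 10 times the −log10 q and was not used. These are the authors' values and were used to describe and rank peaks within a list. Gene bodies, starts and promoter sequences came from RefSeq, GRCm38.p6, and all 10 genes matched. Of 21887 coding genes 4395 had no start in the promoter table and were left out of counts of starts. The table gives no exons, so exons and introns were not told apart. Peaks on scaffolds were left out. All members were named. By rule, the peaks named were those at starts, the strongest of a window and peaks of 1 list only with a −log10 q of at least 5, of which a part was printed. Named outside it, after their values were seen, were the peaks nearest to starts without one, the 2 Klf4-only peaks of Slc16a1 and the distal Lmo4 peak. From the other lists, genes past 1.5-fold were named, at most 5 in each direction. Alternatives are given in the closing section. The functions were tested on simulated data. Python 3.11.15, numpy 2.4.6, pandas 2.3.3 and scipy 1.17.1 were used.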

Additional observations from a re-analysis of the deposited data

How the results depend on the processing

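No paired analysis was possible because each plasmid has a single merged list, and replicates could not be left out in turn for the same reason. A count or density is said to move beyond 1.5 times, a share when it leaves its 95% Wilson interval, and the median log2 ratio when it changes by 0.1 or more. Of 95 values under alternatives 65 stayed within these limits and 30 moved. Most are values of a single list, so the order of the lists was compared separately: with the top 20000 peaks it turned for open starts and for density, and at a −log10 q of 50 or more it turned for the number of peaks (10 and 8, a ratio of 0.8, beside 0.84 over all peaks). Leaving out 1 gene at a time gave a median log2 ratio from 0.57 to 0.63. The thresholds of 20, the relative count, the starts of the promoter table alone and this were chosen after seeing the data.

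Peaks in the windows numbered 62 with the empty vector and 80 with Klf4 at a −log10 q of at least 5, 20 and 27 at 20, 15 and 16 among the top 20000 peaks, 52 and 69 at 500 bp or wider, and 50 and 79 in gene bodies alone. The ratio of Klf4 to empty vector peaks in the windows was 1.29 at 5, beside 1.26 over all peaks. It was 1.58 at 10, beside 1.12, and 1.35 at 20, beside 0.973. The empty-vector-only share was 25.8% at 5 (whole list 16.3%), 26.9% at 500 bp (20.4%) and 24.5% when 50% of a peak had to be covered (24.9%). The Klf4-only share was 18.8% with the top 20000 peaks (whole list 12.7%) and 54.6% with 50% covered (43.1%). Limits set on both lists also count a peak as 1-list-only where the limit removed its counterpart. The median log2 ratio was 0.49 at 5, 0.39 at 500 bp, 0 with the top 20000, 0.26 at 20 and 0.39 relative to all coding genes. Genes past 1.5-fold higher with Klf4 were 2 of 10 at 500 bp (22.5% of coding genes), 2 with the top 20000 (5.73%) and 2 relative to all genes (13.4%), and 1 passed 2-fold (7.98%). At 5 there were 5 of 10 (20.2%). At 20 there were 4 of 10 (6.71%), namely Acot7, Hk1, Ldha and Oat. Genes past 1.5-fold lower were 1 at 5 (1.85%) and 1 with the top 20000 (3.95%), Lmo4 in both. Median density with the top 20000 was 15.1 bp per kb with the empty vector and 12.3 with Klf4. Open starts with the top 20000 were 50% with the empty vector and 30% with Klf4 (coding genes 49.4% and 50.5%), and at 20 they were 50% in both (54.0% and 55.3%). At 5 they were 70% and 90% (60.5% and 66.5%), and at 500 bp also 70% and 90% (60.8% and 65.8%). The causes were not tested, other than that stricter limits leave fewer peaks.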

Other observations

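A further 32 genes were counted in the same way, paralogues of the 10 genes and genes that act in the same pathways. Of 25 with an annotated start, 18 were open with the empty vector (72%, beside 64.0% of coding genes) and 19 with Klf4 (76%, beside 70.3%). Their median log2 ratio of covered length was 0.31, beside 0.21 for all coding genes. Past 1.5-fold higher with Klf4 were 7 of 32 (21.9%), close to the 23.0% of coding genes, and 0 were past it lower (1.54%). Among the hexokinases, Hk2 (2414 bp for the empty vector, 5718 bp for Klf4, log2 ratio 1.09) and Hk3 (3866 and 9601 bp, 1.21) were past the limit. Hkdc1, whose window overlaps that of Hk1, had a peak at a start with Klf4 only, and 5763 and 5480 bp (−0.07). Ldhb, the other main lactate dehydrogenase subunit, had 4637 and 4138 bp (−0.15). Slc16a3, which encodes the lactate exporter MCT4, had 4200 and 8194 bp (0.89). Pdgfrb, the partner receptor of Pdgfra, had 4432 and 11995 bp (1.34), Lmo3 187 and 1104 bp (1.22), and Ldhd, a D-lactate dehydrogenase, 2606 and 5353 bp (0.91). Hkdc1, Ldhb and Slc16a3 were named after their values were seen.

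Markers of cell types were counted as well. Past 1.5-fold higher with Klf4 were 4 of 6 acinar, 3 of 4 endothelial, 2 of 4 blood and 2 of 8 mesenchymal markers, and 1 of 12 beta cell markers, Nkx6-1 (4900 and 9338 bp, log2 ratio 0.87). The share of coding genes was 23.0%, which the mesenchymal markers (25%) were close to. None of these markers passed the limit as lower with Klf4. Kdr, an endothelial receptor gene chosen after its values were seen, had no empty vector peak in its window and 1 Klf4 peak of 1216 bp. Pdgfrb is in both the mesenchymal list and the list of 32 genes. The markers of each type are few, they share 1 pair of lists, and no difference between lists of genes was tested.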
